A study of Mus musculus with 6 samples.

Results

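The genes described here encode Wnt ligands, frizzled receptors, the co-receptors Lrp5 and Lrp6, the Dickkopf proteins Dkk1 to Dkk4 and the R-spondins Rspo1 to Rspo4. They were chosen by gene name among the gene probes of a mouse expression array, which gave 39 of 36084 genes and 46 of 55661 probes: 19 Wnt genes, 10 Fzd genes, 2 Lrp genes, 4 Dkk genes and 4 Rspo genes. No measured value entered the naming rule, but the family was chosen with earlier results of these data known. Of the 39 genes, 22 had a probe that 3 or more of the 6 arrays measured well above background, and were tested, among 22991 genes tested in all. The other 17 were not tested and are described by their signals.

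The study measured total RNA from hearts of male C57BL/6 mice, 8 weeks old, on 1-colour Agilent arrays labelled with Cy3. The left anterior descending coronary artery of every mouse was tied off to cause a myocardial infarction, and hearts were taken 21 days later. A group of 3 arrays came from mice given a miR-433 antagomir, an antisense oligonucleotide that blocks a microRNA, at 80 mg/kg by tail vein on 3 consecutive days, and the control group of 3 arrays came from mice given a scrambled oligonucleotide in the same way. The stated question was whether blocking miR-433 prevents cardiac fibrosis. Both groups carry the infarction, and no uninjured heart is among the arrays. The region of the heart is not named. Nothing says that the arrays of a group came from different mice, and p-values then measure only the spread between these samples, which may be technical.

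Wnt proteins are secreted, lipid-modified ligands that bind frizzled receptors, which cross the membrane repeatedly, together with a co-receptor. With Lrp5 or Lrp6 as co-receptor they stabilise beta-catenin, which enters the nucleus and acts with TCF and LEF factors, and with Ror or Ryk receptors they drive planar polarity and calcium responses. Dickkopf proteins bind Lrp5 and Lrp6 and block the first route, and R-spondins raise the number of frizzled receptors at the surface through Lgr receptors. In the injured heart the pathway is known for its activity in fibroblasts, in the epicardium and in the endothelium.

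The first sequence is that of the microRNA named by the treatment, from RefSeq (GRCm38.p6, chr12:109591781-109591802, plus strand), with its seed, bases 2 to 8, in capitals. The labels do not say which arm the antagomir targets, and the 3p arm is shown.
miR-433-3p: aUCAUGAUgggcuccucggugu
The array holds no probe for the mature microRNA, so its level was not measured. The DNA letters that pair with the seed, ATCATGA, were in 0 of the 46 member probes as written on the sense strand and in 0.516% of all 55661 probes, which says only that these letters are not in those short windows.

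The next sequences are array probes of Fzd2 (mm9, chr11:102467613-102467672, plus strand) and Fzd7 (mm9, chr1:59541367-59541426, plus strand). They are shown because 2 receptors of one family share 42 of 50 overlapping bases here, with a shift of 10 bases, and the capitals mark the shared bases.
Fzd2 probe: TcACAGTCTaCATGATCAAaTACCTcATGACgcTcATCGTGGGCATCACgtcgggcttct
Fzd7 probe: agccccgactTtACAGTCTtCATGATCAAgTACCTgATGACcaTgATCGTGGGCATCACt
The last set holds probes of Wnt1 (mm9, chr15:98623276-98623335), Wnt4 (chr4:136851690-136852258, a span with an intron inside) and Wnt8b (chr19:44585759-44585818), all on the plus strand. They are shown because faint probes behaved differently on 1 antagomir array, and the capitals mark runs of at least 4 purines (A or G).
Wnt1 probe: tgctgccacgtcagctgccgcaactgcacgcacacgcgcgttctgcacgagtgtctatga
Wnt4 probe: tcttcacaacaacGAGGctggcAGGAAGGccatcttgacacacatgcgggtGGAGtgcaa
Wnt8b probe: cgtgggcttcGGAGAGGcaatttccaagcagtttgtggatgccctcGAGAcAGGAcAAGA
The Wnt1 probe has 0 bases in such runs, the Wnt4 probe 15 and the Wnt8b probe 19.

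The arrays did not measure faint probes equally. Between 57.7% and 58.5% of gene spots on a control array were well above background, against 55.2% and 56.2% for antagomir arrays 1 and 2 and 73.6% for antagomir array 3. Saturated gene spots numbered 0. All 10 cardiomyocyte markers were well above background on all arrays. All 10 were also higher with the antagomir (median log2 difference 0.22, against 0.11 for all genes). The groups did not overlap for 4 of them, beside a background of 10.3%, and 0 had an unadjusted limma p under 0.05. Markers of fibroblasts were lower with the antagomir (8 of 10, 6 of them at an unadjusted limma p under 0.05), as were those of myofibroblasts (10 of 10, 9 at that p). Among all genes tested 35.2% were lower, and 3.93% were lower at that p. Of 7 atrial markers 5 were higher, near the share of all genes (14899 of 22991), and 2, Nr2f2 and Nppa, lower. The atrial markers Sln, Myl7 and Myl4 were highest on antagomir arrays 2 and 3. All arrays lay on 1 slide, with control arrays 1 and 2 alone in its first row. Over all genes, limma called 1 of 22991 past an adjusted p of 0.05, a share of 0.00435%.

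Levels are given as the log2 processed signal less its 75th percentile on the same array, so that 0 is that percentile, and differences are antagomir minus control in log2 units with the standard error (SE). A level depends on the probe and is compared between arrays, not between genes. None of the 22 tested genes passed the adjusted threshold, where the background is 0.00435%: 0 of 22 were called by limma. The lowest adjusted p among them was 0.612, for Fzd2. At an unadjusted limma p under 0.05 there were 2, Fzd1 and Fzd2, both lower with the antagomir, beside a background of 3.93% of all genes in that direction. In the other direction there were 0, beside 3.23%.

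The log2 difference was below 0 for 13 of the 22 genes and above 0 for 9, beside 35.2% below 0 among all genes. That split depended on the scaling, with 15 below and 7 above 0 after quantile scaling and 19 below and 3 above after scaling by the median. The median difference of the members was -0.15, and that of all genes tested was 0.11. The members' median was -0.023 without control array 2, -0.043 without control array 3, -0.065 without antagomir array 1 and -0.062 without antagomir array 2. Without control array 2, antagomir array 1 or antagomir array 2 the split was 11 below and 11 above 0. Quantile scaling moved the median of all genes to -0.03 and scaling by the median moved it to -0.35. Relative to that shift, the members' median was -0.26 in the scaling used here, -0.18 after quantile scaling and -0.26 after scaling by the median, and -0.086 in the scaling used here without control array 2. The control and antagomir levels did not overlap for 4 members that were lower (Fzd1, Fzd2, Fzd8 and Wnt9a), beside a background of 6.45%, and for 1 that was higher (Fzd5), beside 10.3%.

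**Figure D1:**
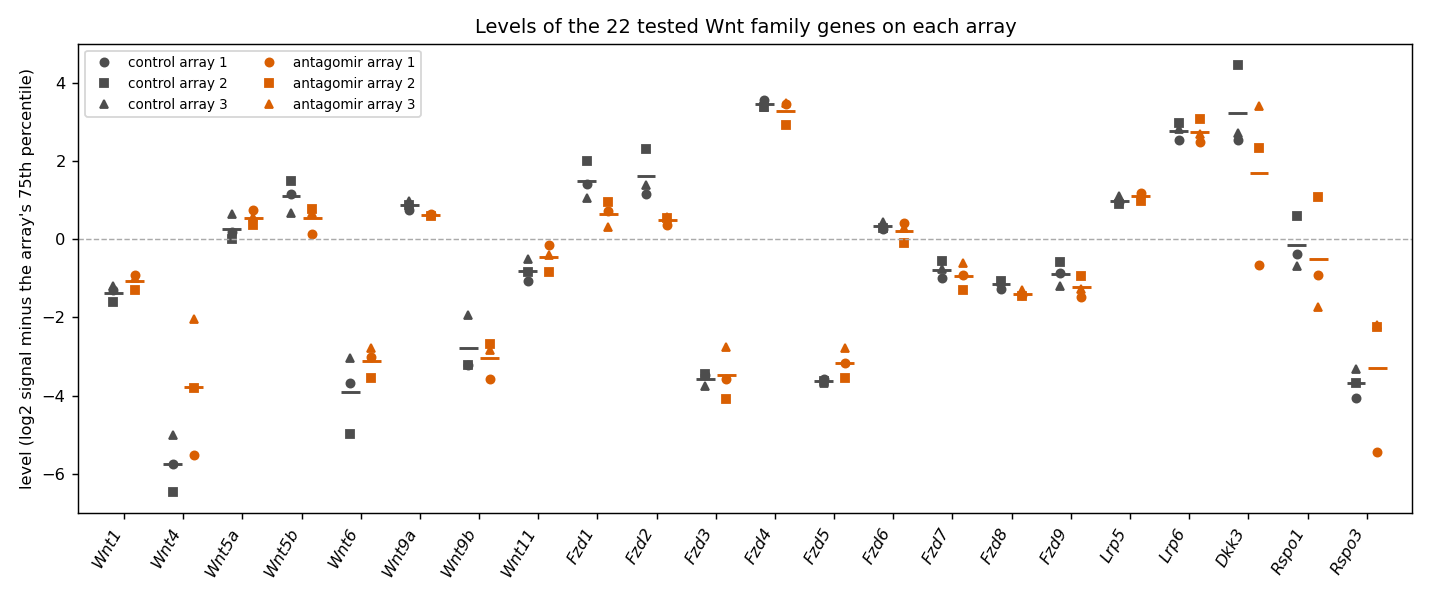
Level of each tested gene (log2 signal minus the 75th percentile of the array, vertical axis) on each of the 6 arrays, with controls in grey, antagomir in orange and a line at each group's mean. The 3 antagomir points of Fzd1 and Fzd2 lie below the 3 control points, while those of Dkk3, Rspo1 and Rspo3 are spread widely.

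Among the receptors, 9 of 10 frizzled genes were tested. Of these, 7 had differences below 0, beside 35.2% of all genes, and 2 above 0. Their median was -0.17, beside 0.11 for all genes. The signs of Fzd3 and Fzd5, the 2 above 0, turned after quantile scaling. Frizzled receptors bind Wnt proteins through a cysteine-rich domain outside the cell and pass the signal to Dishevelled inside it.

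Fzd2 (probe at mm9 chr11:102467613-102467672) had levels of 1.15, 2.31 and 1.38 on control arrays 1 to 3 and of 0.37, 0.54 and 0.56 on antagomir arrays 1 to 3. All antagomir arrays were below all controls, and control array 2 stood highest. The difference was -1.12 (SE 0.32, 95% interval -1.89 to -0.35), a 2.17-fold lower level, with an unadjusted p of 0.0122 and an adjusted p of 0.612 by limma. Fzd2 is a receptor for Wnt5a among other ligands. A second Fzd2 probe (chr11:102469045-102469104) gave processed signals of 58.2, 131 and 71.5 in the controls and 33.3, 35.7 and 18.6 with the antagomir, a difference of -1.29. Both probes had their highest signal on control array 2 and no overlap between groups. Without control array 2 the difference of the first probe was -0.77, and the unadjusted p stayed under 0.05 in each of the 6 fits that left out an array. It did not when slide row was a block (-0.89, unadjusted limma p 0.119).

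Fzd1 (chr5:4754003-4754062, minus strand) had levels of 1.40, 2.01 and 1.05 in the controls and of 0.72, 0.95 and 0.31 with the antagomir. The groups did not overlap, and control array 2 was again the highest, but control array 3 was only just above antagomir array 2. The difference was -0.83 (SE 0.30, 95% interval -1.57 to -0.09), a 1.78-fold lower level, with an unadjusted p of 0.0329 and an adjusted p of 0.661 by limma. Fzd1 is a close relative of Fzd2 and Fzd7 and is known to pass beta-catenin signals. The unadjusted p was over 0.05 without control array 1, control array 2, antagomir array 1 or antagomir array 3. With slide row as a block the difference was -0.39.

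Fzd7, the third of that subfamily, had levels of -0.99, -0.56 and -0.77 in the controls and of -0.91, -1.30 and -0.62 with the antagomir. The groups overlapped, and the difference was -0.17 (SE 0.22). Its other probe, whose letters are shown above beside those of Fzd2, was faint, with processed signals of 7.3, 16.5 and 38.4 in the controls and 7.2, 9.996 and 41.3 with the antagomir. The array with the highest Fzd2 signal was thus not that with the highest signal of this Fzd7 probe.

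Fzd8 had levels of -1.26, -1.08 and -1.10 in the controls and of -1.42, -1.45 and -1.30 with the antagomir. The groups did not overlap, by a margin smaller than the control spread, and the difference was -0.24 (SE 0.13, adjusted p 0.661 by limma). Fzd4, the receptor for norrin in vessels, had levels of 3.57, 3.39 and 3.39 in the controls and of 3.45, 2.92 and 3.48 with the antagomir. Antagomir array 2 alone was low, and the difference was -0.17 (SE 0.19).

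Fzd6, a receptor of the planar polarity route, had levels of 0.27, 0.29 and 0.45 in the controls and 0.41, -0.09 and 0.29 with the antagomir. Fzd9 had levels of -0.87, -0.57 and -1.19 in the controls and -1.47, -0.93 and -1.27 with the antagomir. The groups overlapped for both, with differences of -0.13 (SE 0.18) for Fzd6 and -0.35 (SE 0.23) for Fzd9.

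Fzd5 and Fzd3 were close to background. Fzd5 had levels of -3.58, -3.64 and -3.67 in the controls and -3.16, -3.54 and -2.77 with the antagomir. The groups did not overlap and antagomir array 3 was the highest, with a difference of 0.48 (SE 0.22, adjusted p 0.661 by limma) that became -0.08 after quantile scaling. A second Fzd5 probe had processed signals of 20.7, 19.4 and 29.5 in the controls and 20.4, 17.1 and 68.2 with the antagomir. For that probe the groups overlapped, and the difference was 0.59. Fzd3, another planar polarity receptor, had levels of -3.48, -3.45 and -3.76 in the controls and -3.57, -4.09 and -2.76 with the antagomir. Antagomir arrays 2 and 3 were the lowest and the highest of all 6, and the difference was 0.09 (SE 0.35). Fzd10 was not well above background on any array.

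**Figure D2:**
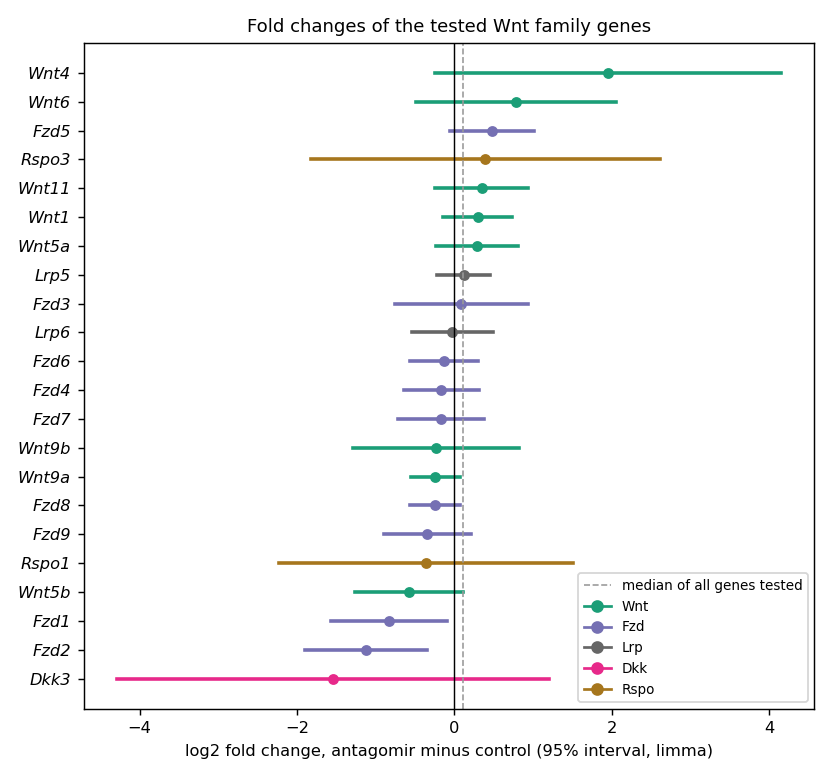
Log2 fold change of each tested gene, antagomir minus control (horizontal axis, points), with its 95% interval from limma (lines), coloured by class, with the median of all genes tested as a dashed line at 0.11. The intervals of Fzd1 and Fzd2 lie below 0, and those of the other 20 genes cross it.

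Both co-receptors were tested, and their differences were small. Lrp5 had levels of 0.94, 0.89 and 1.11 in the controls and 1.18, 0.97 and 1.15 with the antagomir, a difference of 0.12 (SE 0.14, 95% interval -0.22 to 0.46). Lrp6 had levels of 2.53, 2.98 and 2.83 in the controls and 2.48, 3.07 and 2.70 with the antagomir, a difference of -0.03 (SE 0.21, 95% interval -0.55 to 0.49). The groups overlapped for both genes. A second Lrp6 probe had a difference of 0.15, of the opposite sign. The intervals leave room for differences of up to 0.55 in size, so equal levels were not shown.

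Among the ligands, 8 of 19 Wnt genes were tested. Of these, 5 had differences above 0, near the share of all genes (14899 of 22991), and 3 below 0. Their median was 0.29, beside 0.11 for all genes. The signs of Wnt1, Wnt5a and Wnt11, 3 of the 5 above 0, turned after scaling by the median, which shifts the difference of every gene by the same amount. Unadjusted limma p-values under 0.05 numbered 0 among the 8 Wnt genes.

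Wnt5b, a ligand of the planar polarity and calcium route, had levels of 1.15, 1.50 and 0.67 in the controls and 0.14, 0.77 and 0.68 with the antagomir. Control arrays 1 and 2 were above all others, and control array 3 lay among the antagomir arrays. The difference was -0.58 (SE 0.28, adjusted p 0.661 by limma), and it was -0.14 with slide row as a block. Wnt5a, its close relative and a known ligand of Fzd2 and Ror2, had a difference of 0.29 (SE 0.21), with processed signals of 549 to 785 in the controls and 565 to 719 with the antagomir. The levels of the groups overlapped for Wnt5a, though antagomir array 1 was above every control.

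Wnt9a had levels of 0.74, 0.87 and 0.98 in the controls and 0.64, 0.60 and 0.62 with the antagomir. The antagomir arrays lay close together and below all controls, but the difference was small at -0.24 (SE 0.13, adjusted p 0.661 by limma). Its relative Wnt9b had a difference of -0.24 (SE 0.43), and its control array 3 alone was high. For Wnt9b the difference was 0.18 without control array 3, -0.76 after quantile scaling and -1.08 (unadjusted limma p 0.0433) with slide row as a block. Wnt11, a ligand needed in cardiac development, had a difference of 0.35 (SE 0.24), and Wnt1, the founding member of the family and an activator of beta-catenin, one of 0.30 (SE 0.18). For both, the range of the antagomir arrays overlapped that of the controls.

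Wnt4 and Wnt6 were faint. Wnt4, which the embryonic kidney requires, had processed signals of 9.8, 6.3 and 15.7 in the controls and 9.4, 31.5 and 110.8 with the antagomir, and was well above background on control array 3 and antagomir arrays 2 and 3. Its levels were -5.75, -6.46 and -5.01 in the controls and -5.51, -3.80 and -2.05 with the antagomir. Antagomir arrays 2 and 3 were above all controls and antagomir array 1 was among them. The difference was 1.95 (SE 0.90, 95% interval -0.24 to 4.15, adjusted p 0.661 by limma), and it was 1.09 without antagomir array 3. After normexp background correction with quantile scaling it was 0.43. Wnt6 had levels of -3.67, -4.99 and -3.04 in the controls and -3.00, -3.55 and -2.79 with the antagomir, a difference of 0.78 (SE 0.52). Control array 2 was the lowest of the 6 for Wnt6, and the groups overlapped. The Wnt6 difference was 0.24 without control array 2 and 1.21 without control array 3. It was 0.19 after quantile scaling, 0.066 with normexp and quantile scaling together, and -0.074 with slide row as a block.

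Of the antagonists, Dkk3 alone was tested. Dkk3 is the divergent Dickkopf protein, and unlike Dkk1 it is not a classical blocker of Lrp6. Its probe (chr7:119259556-119259615, minus strand) had levels of 2.55, 4.45 and 2.72 in the controls and -0.65, 2.33 and 3.40 with the antagomir. Antagomir array 1 was far below the rest, and antagomir array 3 was above control arrays 1 and 3. The difference of -1.55 (SE 1.12, 95% interval -4.29 to 1.20) had an adjusted p of 0.662 by limma. It was -0.37 without antagomir array 1, -0.94 without control array 2 and -2.40 without antagomir array 3. After scaling by the median the difference was -2.01 (SE 0.57) with an adjusted p of 0.0453 by limma. This was the only setting among the 20 others in which a tested member was called, when limma called 239 genes in all. In that setting limma gave every tested member the same SE, so the wide spread of Dkk3 between arrays did not enter its own SE. Dkk1 was not well above background on any array, and Dkk2 and Dkk4 were on 2 arrays each.

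The R-spondins varied more between arrays than between groups. Rspo1, a ligand of Lgr receptors, had levels of -0.38, 0.60 and -0.69 in the controls and -0.91, 1.08 and -1.72 with the antagomir. The highest and the lowest level were both in the antagomir group, and the difference was -0.36 (SE 0.76). Rspo3, which is known to act in vessels, had levels of -4.06, -3.67 and -3.32 in the controls and -5.44, -2.24 and -2.21 with the antagomir. Antagomir arrays 2 and 3 were above all controls and antagomir array 1 below all of them, and the difference was 0.39 (SE 0.90). Without antagomir array 1 it was 1.46. Rspo2 was well above background on control array 3 alone, and Rspo4 on no array.

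The 17 genes that were not tested had processed signals of at most 27.5 on the first 5 arrays (controls 1 to 3 and antagomir 1 and 2), and of 6.2 to 76.4 on antagomir array 3. Over all 46 probes, 22 were well above background on all arrays and 10 on none, and 7 genes (Wnt2b, Wnt3, Wnt3a, Wnt10a, Fzd10, Dkk1 and Rspo4) had no probe well above background anywhere. Wnt10b was well above background on control array 2 alone. Member probes well above background numbered 25, 26 and 29 in controls 1 to 3, and 23, 25 and 32 with the antagomir. On antagomir array 3 alone, 6 probes were well above background, those of Wnt2, Wnt7a, Wnt7b, Wnt8a, Wnt8b and Wnt16. Wnt7a, for one, had signals of 3.0 to 3.1 on the 5 other arrays and 76.4 on that one, and the Wnt8b probe shown above had 3.0 to 4.1 and 46.9. The Wnt1 probe shown above, which has no purine run and is not the one tested, had 3.0 to 3.1 and 13.5 and was not well above background.

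These 6 were 37.5% of the 16 member probes that were dim on the other 5 arrays, beside 43.8% of all 20226 such probes. Their median purine content was 55% (50% to 63.3%), and that of the 10 member probes dim on every array was 46.7% (38.3% to 51.7%). Over all probes the medians were 56.7% and 48.3%. No difference between groups is given for these genes. The Wnt4 probe is 58.3% purine. The part of the brighter faint probes of antagomir array 3 in the values of Wnt4, Fzd3, Fzd5 and Rspo3 was not tested.

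**Figure D3:**
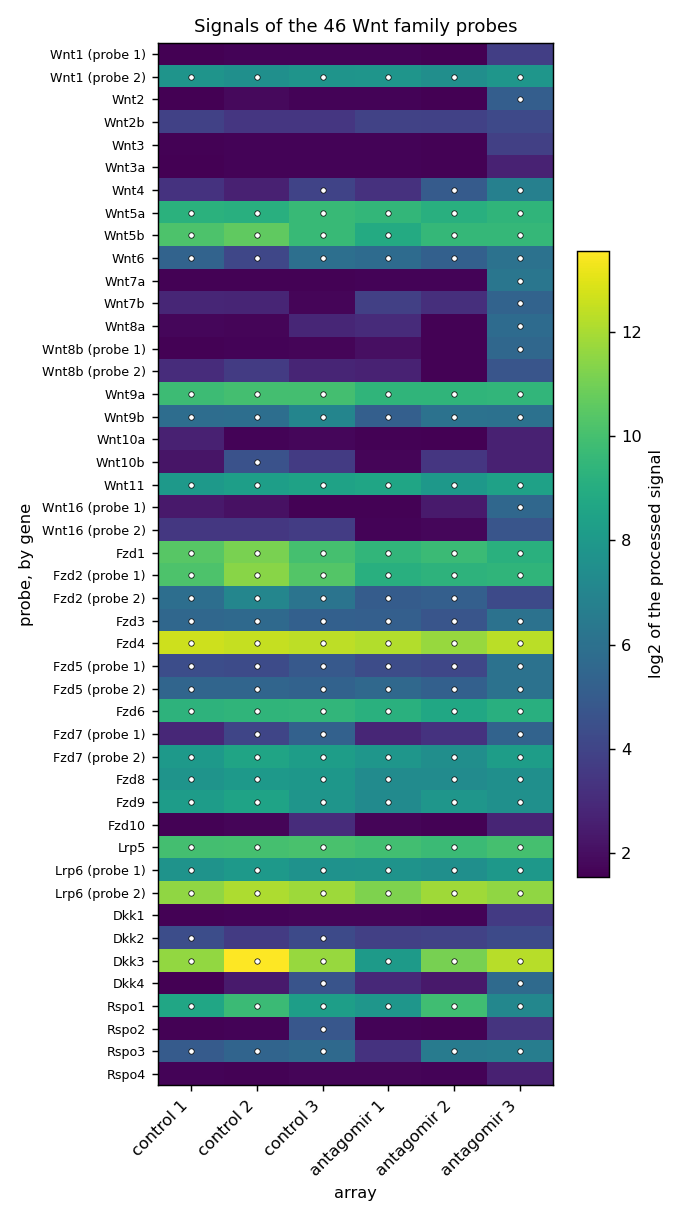
Log2 of the processed signal (colour) of each of the 46 probes (rows, by gene) on each array (columns), with a dot where the probe was well above background. The last column, antagomir array 3, holds 32 dots, and its 6 dots for Wnt2, Wnt7a, Wnt7b, Wnt8a, Wnt8b and Wnt16 have no counterpart on other arrays.

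The levels of several members are given here beside those of marker genes of cell types. In bulk tissue, fewer cells of a type and less RNA per cell cannot be told apart. The lists were set with earlier results of these data known, and which members stand beside which list was chosen after the values were seen. The mean of the fibroblast markers, relative to the control mean, was -0.17, 0.41 and -0.24 in the controls and -1.31, -1.13 and -1.66 with the antagomir. Fzd1, Fzd2, Wnt5b and Dkk3 were highest on control array 2, where the fibroblast and myofibroblast lists were highest too. The smooth muscle and pericyte list was also highest there (0.16), and was -0.35, -0.57 and -0.19 on antagomir arrays 1 to 3. Of its 9 tested markers 6 were lower and 3 higher, with 4 lower at an unadjusted limma p under 0.05. The shares over all genes were 35.2% lower, and 3.93% lower at that p. On antagomir array 3, where the fibroblast list was lowest, Dkk3 was above control arrays 1 and 3, and Wnt5b was level with control array 3. All 10 fibroblast markers were well above background on all arrays, with summed signals of 393448 to 547425 in the controls and 241567 to 274035 with the antagomir. Of the 10, 6 were lower without overlap between groups, beside a background of 6.45%. The groups overlapped for Tcf21 (-0.51), Pdgfra (-0.33), Dcn (0.02) and Gsn (0.26). The summed signals of the 10 myofibroblast markers, 8 of them well above background on all arrays, were 70179 to 248984 in the controls and 22525 to 27161 with the antagomir. The part of these cells in the lower Fzd1 and Fzd2 levels was not tested.

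The mean of the epicardial and mesothelial markers was 0.28, 0.43 and -0.71 in the controls and -0.23, 1.75 and -1.21 with the antagomir, and Rspo1 was likewise highest on antagomir array 2 and lowest on antagomir array 3. The macrophage list was also highest on antagomir array 2 (0.62) and lowest on antagomir array 3 (-0.60), and the list for T and NK cells was highest on antagomir array 2 (3.36). Of the epicardial and mesothelial list 6 markers were tested, 4 of them well above background on all arrays. The summed signals of these epicardial and mesothelial markers were 1386 to 2553 in the controls and 702 to 3645 with the antagomir. The mean of the atrial cardiomyocyte markers was -0.69, -0.42 and 1.11 in the controls and -0.22, 2.52 and 3.60 with the antagomir. Wnt4 and Rspo3 were also highest on antagomir arrays 2 and 3, as was the adipocyte list (2.47 and 2.55). Among the atrial markers, Sln, Myl7 and Myl4 alone were highest on those arrays. Stard10 and Kcnj3 were highest on antagomir arrays 1 and 3. Nppa was highest on control array 2, and Nr2f2 was below every control on all antagomir arrays. The summed signals of the 7 tested atrial markers were 167949 to 290155 in the controls and 14120 to 326070 with the antagomir. Of the 7, 6 were well above background on all arrays. The sum was lowest on antagomir array 1, as was Dkk3, but Nppa alone gave 10016 of the 14120 there. Nppa also gave 159247 to 285395 in the controls. The mean of the atrial list was instead lowest on control array 1. The part of these cells in the results was not tested.

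**Figure D4:**
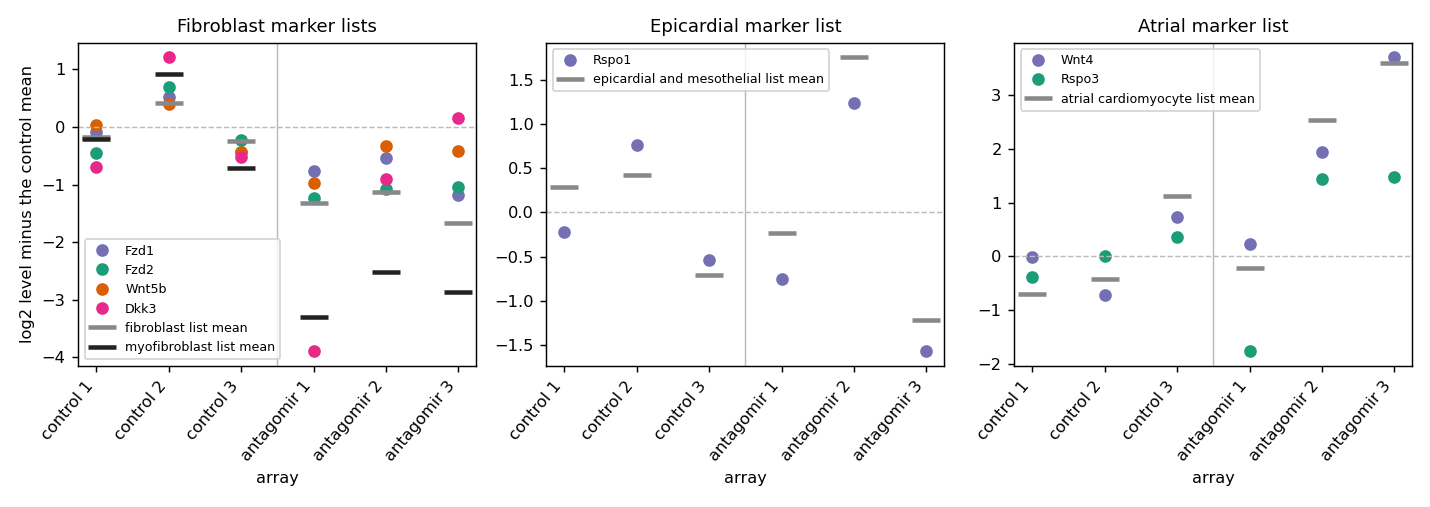
Log2 level minus the control mean (vertical axis) on each array for Fzd1, Fzd2, Wnt5b and Dkk3 beside the fibroblast lists, Rspo1 beside the epicardial list, and Wnt4 and Rspo3 beside the atrial list (dots for genes, dashes for list means). Fzd1 and Fzd2 are below 0 on all 3 antagomir arrays, where the fibroblast list is between -1.66 and -1.13.

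The rest of the pathway was read from 5 lists, and 0 genes in them passed the adjusted limma threshold. Their counts stand beside a background of 35.2% of all genes below 0, and of 3.93% lower and 3.23% higher at an unadjusted limma p under 0.05. Of 15 surface partners and secretion genes tested, 10 were lower and 5 higher (median -0.16), with 1 at an unadjusted limma p under 0.05 in each direction. These were Ror2, a Wnt5a receptor, at -0.61 (SE 0.23), and Kremen2, which binds Dickkopf proteins, at 1.01 (SE 0.41). Of 11 secreted modulators 5 were lower and 6 higher (median 0.24), with 4 lower and 1 higher at that p. The 4 were the frizzled-related proteins Sfrp2, Frzb, Sfrp4 and Sfrp1, which share the Wnt-binding domain of the receptors, with differences of -4.42, -2.76, -2.18 and -1.49. The 1 higher was Sfrp5, a frizzled-related protein too, at 3.11 (SE 0.95), with no overlap between groups.

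In the beta-catenin machinery 16 of 29 genes were lower and 13 higher (median -0.05), and at an unadjusted limma p under 0.05 there was 1, the transcription factor Lef1, at 1.37 (SE 0.56). Of 17 genes used as readouts of beta-catenin 13 were tested, and Axin2, Sp5, Rnf43 and Tcf7 were not. Of the 13, 9 were lower and 4 higher (median -0.43). At that p 2 were lower, Ccn5 at -2.95 (SE 0.77) and Ccn4 at -1.14 (SE 0.39), and 1 was higher, Lef1. Ccn4 and Ccn5 encode secreted matrix-associated proteins. In the planar polarity and calcium branch 9 of 19 genes were lower and 10 higher (median 0.02). There was 1 lower at that p, the transcription factor Nfatc4 at -0.73 (SE 0.23).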

How the data were processed

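The deposited scanner output holds each spot's processed signal as an intensity, background-corrected by Agilent Feature Extraction 10.7.1.1, per the file headers. The other value columns used here are per-spot flags and the control type, per the file headers. The normexp setting also used each spot's mean signal and median background signal. The authors' deposited table holds raw intensities within 1% of that signal and log2 normalised values whose sorted columns are the same within 0.00143, and it served as an alternative. How it was normalised is not given in the sources used here.

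Control spots were dropped, as were outlier spots (154 to 233 on an array), and spots of a probe were averaged. Log2 signals were scaled to the 75th percentile of their array. A probe was tested where 3 or more of the 6 arrays measured it well above background, and the probe with the highest mean stood for its gene. The comparison used limma 3.58.1 (R 4.3.3) over all genes, with Benjamini-Hochberg adjustment. With 3 arrays against 3, an exact two-sided permutation test cannot go below 0.1. The limma fit was tested on simulated data, and that test did not include the scaling, the filter or the choice of probe. Figures were drawn with matplotlib 3.10.9. Positions of probes come from the array design (mm9), and names were updated with RefSeq (GRCm38.p6).

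Members and lists were chosen with earlier results of these data known. Values on every array are given for tested members with an unadjusted p under 0.05, a log2 difference of at least 1 or no overlap, for the frizzled genes and co-receptors, and for the 3 largest differences of each class, and up to 4 genes are named per list. Alternatives were other scalings, filters, probe rules, moderation and array weights, blocks and leaving out each array. The number of arrays limits the precision.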

Additional observations from a re-analysis of the deposited data

How the results depend on the processing

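Among 20 other settings, 8 of the 22 tested members (Dkk3, Fzd1, Fzd2, Fzd8, Fzd9, Wnt4, Wnt5b and Wnt9a) kept their sign wherever they were tested, and 14 turned in at least 1. By limma 0 members were called in 19 settings and 1 after scaling by the median, Dkk3 (-2.01), where every tested member had the same SE of 0.57. Over all genes the 1 call became 239 after scaling by the median, 0 with normexp (offset 50) and quantile scaling together, 0 with all 6 arrays above background, 3 with all arrays of a group, 0 with antagomir array 3 left out of the filter (chosen after seeing the data), 5 with every probe on its own, 3 with a variance trend and robust moderation together, 8 with array weights, 0 with slide row as a block and 0 to 2 when an array was left out. The members' median was -0.61 after scaling by the median and 0.16 with no filter. The labels do not say whether replicate numbers pair the samples. Deviations of same-numbered arrays from their group means had correlations of 0.222, 0.142 and -0.05. With 3 arrays in a group these values cannot settle it. The replicate block gave 0 calls, with 2364 genes instead of 1645 at an unadjusted limma p under 0.05.

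Signs turned as follows. After quantile scaling Fzd3 was -0.43 and Fzd5 -0.076, with normexp and quantile scaling together Fzd3 -0.17 and Fzd5 -0.0027, and in the authors' table Fzd3 -0.43 and Fzd5 -0.077. After scaling by the median Fzd3 was -0.38, Lrp5 -0.35, Rspo3 -0.072, Wnt1 -0.17, Wnt11 -0.12 and Wnt5a -0.18, a setting that shifts every gene's difference alike. The mean of probes gave Lrp6 0.061. Array weights gave Fzd6 0.0079, Fzd7 9.7e-05 and Rspo3 -0.55. Slide row as a block gave Lrp5 -0.011, Rspo1 0.17, Wnt5a -0.081 and Wnt6 -0.074. When an array was left out, ranges were -0.27 to 0.39 for Fzd3, -0.26 to 0.013 for Fzd4, -0.24 to 0.015 for Fzd6, -0.33 to 0.011 for Fzd7, -0.19 to 0.11 for Lrp6, -1.16 to 0.24 for Rspo1, -0.15 to 1.46 for Rspo3 and -0.45 to 0.18 for Wnt9b. The cause was not tested. Signal near background limits the values of Wnt4, Wnt6, Fzd3, Fzd5 and Rspo3.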
